A study of Mus musculus with 3 samples.

Results

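The cytosolic ribosomal protein genes described here are the protein-coding genes of the GENCODE M21 mouse annotation whose symbols begin with Rpl or Rps and a digit, together with Rplp0, Rplp1, Rplp2 and Rpsa, leaving out the Rps6k kinases. The rule found 92 genes among 55536 in the gene tables, of which 22028 are annotated as protein coding. Of the 92, 46 encode subunits of the large ribosomal subunit and 31 encode subunits of the small one. Another 8 encode variant paralogs (Rpl3l, Rpl7l1, Rpl10l, Rpl22l1, Rpl36al, Rpl39l, Rps27l and Rps27rt), 6 carry a pseudogene suffix but are annotated as protein coding, and Rps19bp1 encodes a binding partner of the Rps19 protein that is no ribosomal subunit.

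The samples were activated regulatory T cells, primary cells of male Mus musculus at 3 weeks of age. PolyA-selected RNA was sheared to a size range of 100 to 300, and 3 libraries were made, which the labels number as technical replicates 1, 2 and 3 of biological replicate 1. There is 1 group, so no condition was compared with another, and each test below sets the libraries against each other and not against a control. How the cells were activated and sorted, their genotype and whether animals were pooled are likewise not stated in the labels. The gene tables assigned 30362256, 28419259 and 31959927 reads to genes in libraries 1, 2 and 3.

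The regulatory T cell label was checked against Foxp3, Il2ra, Ctla4, Ikzf2, Cd4 and Cd3e, all of which were at or above 1 TPM (a level scaled by transcript length and library total) in every library. Foxp3, the lineage factor of regulatory T cells, was at 134.52, 149.64 and 106.32 TPM. Cd4 was at 408, 434 and 259 TPM and Ctla4 at 269, 350 and 241 TPM, while Il2ra, Ikzf2 and Cd3e were not lowest in library 3. Summed over these regulatory T cell markers the level was 2228, 2229 and 1943 TPM. Although numbered as technical replicates, the libraries thus differed in these markers, and they differed in others as well. Across the 8 erythroid genes the summed level was 14042, 1180 and 811 TPM, which was 1.41%, 0.119% and 0.0817% of all TPM, so library 1 stood apart. Summed myeloid markers were at 562, 177 and 363 TPM, most of it from Cd74 alone (460, 138 and 301 TPM). Summed B cell markers were at 42.9, 40.2 and 67.7 TPM and Cd8a and Cd8b1 together at 26.2, 20.4 and 28.4 TPM. Summed proliferation genes were at 720, 393 and 519 TPM.

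The ribosome is built from ribosomal RNAs and a large set of small basic proteins, most of them present once in each particle, while the acidic stalk proteins Rplp1 and Rplp2 are bound to Rplp0 as dimers. Their genes are among the most strongly and evenly transcribed in growing cells, and their mRNAs are short. These mRNAs begin with a run of pyrimidines, the TOP motif, which places their translation under the control of mTOR and the RNA-binding protein Larp1. When a T cell is activated it enlarges and makes more ribosomes. The same genes have given rise to many processed pseudogenes, intronless copies of the mRNA inserted elsewhere in the genome.

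The ribosomal protein genes were detected almost without exception and at high levels. Of the 92 members, 88 were at or above 1 TPM in all 3 libraries, 79 at or above 100 TPM and 27 at or above 1000 TPM, and all 77 genes for ordinary subunits were among the detected ones. The median over members (all 92 of them) was 634, 707 and 812 TPM in libraries 1, 2 and 3. Ranked by mean TPM over all genes, members took 13 of the first 50 places, 27 of the first 100 and 50 of the first 200. For comparison, the median over the 10601 protein-coding genes detected in all libraries was 30.05 TPM.

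**Figure D1:**
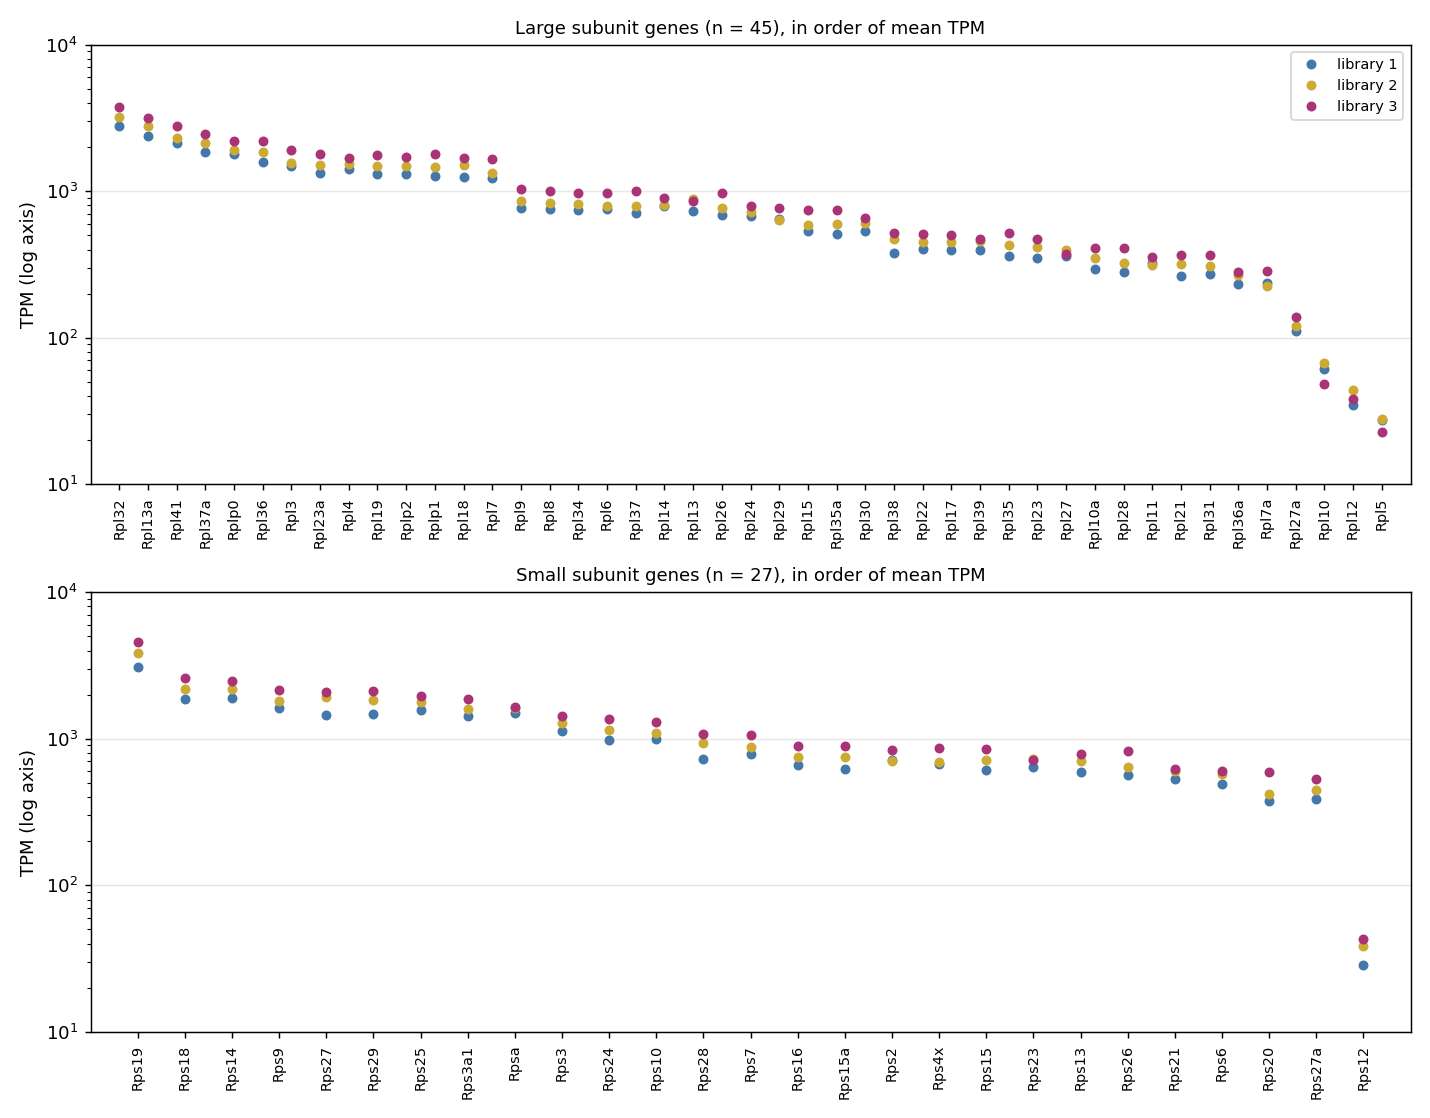
Levels in TPM (vertical axes, logarithmic) of 45 large subunit genes (upper panel) and 27 small subunit genes (lower panel), each point 1 library, genes in order of mean TPM. Rpl32 and Rps19 are highest of those plotted, and Rpl10, Rpl12, Rpl5 and Rps12 lie below 100 TPM in every library.

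Genes of the large subunit had a median of 770 TPM and those of the small subunit a median of 911 TPM. Rpl32, a large subunit protein gene on chromosome 6 (chr6:115805505-115808747, minus strand, GRCm38), was at 2773, 3213 and 3736 TPM in libraries 1, 2 and 3 (3241 ± 482, SD, n = 3). Among other large subunit genes Rpl13a was at 2764 ± 381 TPM, Rpl41, whose product is the shortest ribosomal protein, at 2403 ± 327 TPM and Rpl37a at 2151 ± 314 TPM. The ranges of the neighbours Rpl32 and Rpl13a over libraries overlapped.

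In the small subunit Rps19, one of the genes mutated in Diamond-Blackfan anaemia, was at 3110, 3873 and 4580 TPM. Rps18 was at 2215 ± 361 TPM and Rps14 at 2189 ± 288 TPM, and their ranges overlapped. The variant Rps27rt, a single-exon gene, was at 2474 ± 368 TPM, in the same range.

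Rplp0, which anchors the stalk, was at 1798, 1904 and 2184 TPM. Rplp1 was at 1266, 1457 and 1806 TPM and Rplp2 at 1310, 1498 and 1723 TPM. The log2 ratio of Rplp1 to Rplp2, computed on TPM + 1, was -0.01 ± 0.07 (SD, n = 3), smaller than its spread over libraries.

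At the low end, 4 members had a mean under 1 TPM. Rpl10l, known as a testis form of Rpl10, and Rpl36-ps4 had no reads in any library, and Rpl3l, known as the form of striated muscle, had reads in library 3 only, 3 of them. Rpl9-ps1 had a mean of 0.377 TPM. Rpl39l, another testis paralog, was at 3.65, 2.02 and 3.54 TPM and Rpl36a-ps1 at 12.3, 6.29 and 7.11 TPM. Rps19bp1 was at 31.83, 34.93 and 30.23 TPM.

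Among ordinary subunit genes 4 stood far below the rest. Rpl5, which carries the 5S ribosomal RNA into the large subunit, was listed at 27.58, 28.01 and 22.87 TPM. Rps12 was at 28.5, 38.4 and 43.0 TPM, Rpl12 at 34.6, 44.4 and 38.0 TPM and Rpl10, among the last proteins to join the large subunit, at 61.7, 67.3 and 48.7 TPM. No other ordinary subunit gene was under 100 TPM. The next lowest, Rpl27a, was at 123 ± 13.4 TPM. The 90th percentile of mean TPM over the 77 genes was 6.86 times the 10th percentile.

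These low genes all have near-identical copies that are annotated separately and took reads of their own. Each member's leading transcript, the one with most of its reads, was cut into all its windows of 50 bases, and each window was looked up in the transcripts of all other annotated genes. In 61 of the 92 members at least 50% of the windows occurred elsewhere, in 8 at least 90%, and in 5 none did, among them Rpl3l, Rpl39l, Rps19bp1 and Rpl36-ps4. Counting genes of a pseudogene type that share at least 10% of a member's windows as its copies gave 468 copies, of which 452 are annotated as processed pseudogenes and 16 as transcribed processed pseudogenes. A copy was found for 72 of the 77 ordinary subunit genes, and 128 copies were at or above 1 TPM in every library.

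Rpl5 and Rpl12 show how a low member pairs with a high copy. Each line gives 60 bases of coding sequence from the member and from the copy in the direction of transcription, 5′ to 3′, GRCm38, with capitals at the positions where the pair differ. The first pairs, Rpl5 (chr5:107901870-107901929, exon 2, plus strand) with Gm15500 (chr7:114706101-114706160, minus strand) and Rpl12 (chr2:32962049-32962108, exon 2, plus strand) with Gm10275 (chr10:29699194-29699253, minus strand), have no capitals, because they are the same.
Rpl5: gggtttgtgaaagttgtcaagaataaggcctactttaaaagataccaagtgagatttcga
Gm15500: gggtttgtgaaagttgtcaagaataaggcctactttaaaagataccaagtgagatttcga
Rpl12: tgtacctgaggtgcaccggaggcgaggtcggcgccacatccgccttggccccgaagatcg
Gm10275: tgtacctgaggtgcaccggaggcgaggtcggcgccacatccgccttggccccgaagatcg
Over the whole coding sequence (stop codon left out) Gm15500 was identical to Rpl5 in all 891 bases and Gm10275 to Rpl12 in all 495 bases. Rpl5 has 8 exons in the transcript compared and Gm15500 has 1. A read that lies within the spliced coding sequence, exon junctions included, therefore carries no base that tells the pair apart.

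Gm15500 was listed at 529, 587 and 684 TPM, against 27.58, 28.01 and 22.87 TPM for Rpl5. Copies took 95.2 ± 1.22% (SD, n = 3) of the reads of the Rpl5 family, that is of the member and its copies together. Gm10275 was listed at 1004, 1234 and 1440 TPM, and copies took 92.6 ± 0.88% of the Rpl12 family. In both families the copy was above the member in every library.

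Other families were split in the same way. Copies held more than 50% of the reads in 16 of the 77 families headed by an ordinary subunit gene. They held 79.4 ± 1.46% in the Rpl27 family, 77.1 ± 1.11% in the Rpl27a family, where Gm7536 was at 1012 TPM against 123 TPM for Rpl27a, and 75.80 ± 1.498% in the Rpl13 family, where Gm12918 was at 3240 TPM against 826 TPM for Rpl13. The Rps12 family, with Rps12l1 as its leading copy, had 73.2 ± 1.73% of its reads on copies. Rps6, whose phosphorylation is a common readout of mTOR activity, was at 556 ± 60.02 TPM, and its copy Rps6-ps4 was at 1528 ± 229 TPM. The remaining families, with those of Rpl11, Rps23, Rpl28, Rpl31, Rps7, Rps27a, Rpl15 and Rps13 among them, had shares from 57.0% to 73.0%. Rpl10 differs in that its leading copy, Rpl10-ps3, is itself a member, listed at 440, 478 and 579 TPM and identical to Rpl10 in its coding sequence.

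**Figure D2:**
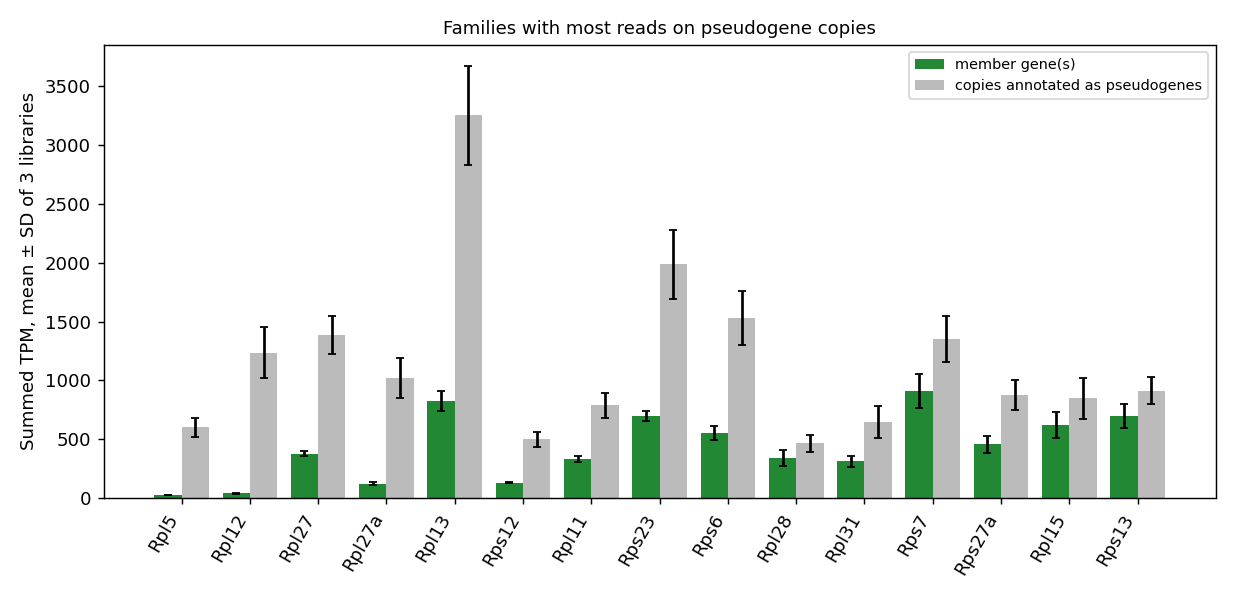
Summed TPM (vertical axis, linear, from 0) of the member gene or genes (green) and of the pseudogene copies (grey) in 15 of the 16 families with more than 50% of reads on copies, in order of that share. Bars are means of 3 libraries and error bars are SD; copies reach 3252 TPM in the Rpl13 family against 826 TPM for the gene.

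How many reads a copy took went with how closely its coding sequence matched. For each of the 72 families with copies the copy with the highest mean TPM was aligned to the member's coding sequence. In 17 pairs there was no difference, and in 14 of them the copy was listed above the member, with a median copy level of 692 TPM. In 41 pairs with 1 to 9 differing or missing bases the copy was above the member in 8, with a median of 56.5 TPM. In 14 pairs with 10 or more it was above the member in 1, with a median of 3.06 TPM. The copy compared was chosen by its level, so these are descriptions.

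The following windows show members whose copies carry marks of their own. Rps7 (chr12:28635595-28635654, exon 2, minus strand) and Gm6472 (chrX:152910061-152910120, minus strand) differ at 2 positions of the window and at 3 of 582 coding bases. Rplp0 (chr5:115561168-115561227, exon 4, plus strand) and Gm8730 (chr8:102865352-102865411, minus strand) differ at 3 positions here and at 12 of 951 coding bases. Rpl4 (chr9:64174920-64174979, exon 2, plus strand) and Gm5835 (chr1:143094448-143094507, minus strand) differ at 4 positions here, and at 36 of 1257 coding bases when 2 missing ones are counted.
Rps7: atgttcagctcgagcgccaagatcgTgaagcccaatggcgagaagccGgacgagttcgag
Gm6472: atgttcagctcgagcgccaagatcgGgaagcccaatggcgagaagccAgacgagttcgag
Rplp0: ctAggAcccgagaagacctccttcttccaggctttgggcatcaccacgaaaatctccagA
Gm8730: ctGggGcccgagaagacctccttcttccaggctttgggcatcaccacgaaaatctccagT
Rpl4: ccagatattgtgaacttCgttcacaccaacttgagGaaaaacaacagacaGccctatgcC
Gm5835: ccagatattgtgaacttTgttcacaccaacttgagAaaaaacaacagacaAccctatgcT
Gm6472, with few differences, was listed at 977 ± 154 TPM beside 911 ± 142 TPM for Rps7. Gm8730 was at 5.77 TPM beside 1962 TPM for Rplp0, and Gm5835 at 2.68 TPM beside 1539 TPM for Rpl4.

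Adding the copies to their members narrowed the range of levels. The median over the 77 families moved from 809 to 1204 TPM, the lowest family from 26.2 to 260 TPM (Rpl7a), and the ratio of the 90th to the 10th percentile from 6.76 to 3.996. With copies that share at least 50% of windows only, a choice made after the data were seen, the ratio was 5.54. Whether a copy is transcribed or only receives the member's reads was not tested, and levels of single members with identical copies are uncertain for that reason.

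The variant paralogs differed widely in their level relative to the ordinary gene. Rpl22l1, which can replace Rpl22 in the ribosome and is known from T cell development, was at 210, 231 and 272 TPM, beside 402, 451 and 510 TPM for Rpl22. It made up 34.3 ± 0.47% (SD, n = 3) of their summed TPM, over coding and noncoding transcripts together. The noncoding Rpl22l1-209 took 71.4% of the Rpl22l1 reads and the coding Rpl22l1-206 took 9.15%. In Rpl22 the coding Rpl22-201 took 86.0%, so the 34.3% is no share of coding transcripts. Rpl36al, a close paralog of Rpl36a, was at 357, 443 and 445 TPM, beside 233, 270 and 280 TPM for Rpl36a, and made up 61.4 ± 0.80%. In both pairs the difference was larger than the spread between libraries and the groups of values did not overlap. Rpl36a has a copy, Rpl36a-ps2, that is identical in all 318 coding bases. That copy was listed at a mean of 267 TPM, beside 261 TPM for Rpl36a. The share of Rpl36al leaves this copy out, so which gene of the pair is higher depends on how those reads are assigned.

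Rps27l, a target of p53, was at 193, 165 and 181 TPM, and the log2 ratio of Rps27 to Rps27l was 3.32 ± 0.36 on TPM + 1. Rpl7l1, a relative of Rpl7, was at 99.1, 112 and 106 TPM, with a log2 ratio of Rpl7 to it of 3.72 ± 0.22. The log2 ratio of Rpl39 to Rpl39l was 6.79 ± 0.42. Rps4l, annotated as a transcribed processed pseudogene and so no member, made up 6.78%, 4.74% and 2.63% of its summed TPM with Rps4x in libraries 1, 2 and 3. For Rpl3 and Rpl3l, and for Rpl10 and Rpl10l, the second gene was at or under 3 reads, so no fold is given.

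Rps27rt and Rps27 are one of the pairs that reads can hardly tell apart, since their coding sequences of 252 bases did not differ. The window shown lies in exon 2 of Rps27 (chr3:90213242-90213301, minus strand) and in the single exon of Rps27rt (chr9:114982642-114982701, minus strand).
Rps27: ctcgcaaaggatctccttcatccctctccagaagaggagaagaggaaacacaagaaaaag
Rps27rt: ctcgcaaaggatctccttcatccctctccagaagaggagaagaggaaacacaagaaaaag
Rps27rt was at 2052, 2646 and 2724 TPM and Rps27 at 1449, 1926 and 2073 TPM, and 98.6% of the windows of Rps27 occurred in other genes. The deposited TPM interval, whose level is not given in the sources used here, spanned 16.5% of its midpoint for Rps27, against 2.29% for Rpl32. It was widest, relative to its midpoint, for members with few reads: 200% for Rpl36-ps4 and Rpl10l, 174% for Rpl3l, 152% for Rpl9-ps1 and 133% for Rpl36a-ps1.

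The members took a different share of each library. Of all reads assigned to genes, 2.77% in library 1, 3.10% in library 2 and 4.02% in library 3 were assigned to members (95% Wilson intervals 2.766 to 2.777, 3.096 to 3.108 and 4.018 to 4.032, which cover counting error only). With the 468 copies the shares were 3.46%, 3.85% and 5.04%. As TPM the members held 7.71%, 8.82% and 10.2%. The order of the libraries was the same on each measure.

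Nearly all members followed that order one by one in the main gene table. A chi-square test of each gene's reads against the effective library sizes (trimmed mean of M values, Benjamini-Hochberg adjustment over 17190 genes with a mean of at least 10 reads) called 87 of the 88 members tested at an adjusted p under 0.05, where 80.0% of all genes tested were called. Called and highest in library 3 were 83 of 88 members, beside 31.4% of all genes tested. Called and lowest in library 1 were 78 members, beside 24.8% of all genes, and called and highest in library 1 were 2, Rpl5 and Rpl36a-ps1, beside 25.3%. In CPM (reads scaled to a common library total) 77 members had library 1 below 2 and 2 below 3, an order that 19.9% of all genes had. The test compares 3 libraries with counting error, and its p-values say nothing of differences between animals. In the smaller count table, also deposited for these libraries, only 10 of 82 members were called, beside 65.2% of its genes. Called and highest in library 3 there were 9 members, beside 23.3% of its genes.

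The size of the difference was also alike from member to member. The median member was 1.45 times as high in library 3 as in library 1 and 1.12 times as high in library 2. As log2(CPM + 0.5), each library minus the mean of the other two, the medians over members were -0.35, -0.09 and 0.45, beside 0.00, -0.01 and 0.01 over all genes tested. With the smaller count table the medians over members were -0.073, 0.015 and 0.046. In the main table the middle 50% of members spanned 0.159 on the log2 scale of library 3 over library 1, against 0.685 over all genes tested. Among genes with a mean of at least 1000 reads the span was 0.155 for 80 members and 0.4997 for 6016 other protein-coding genes.

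**Figure D3:**
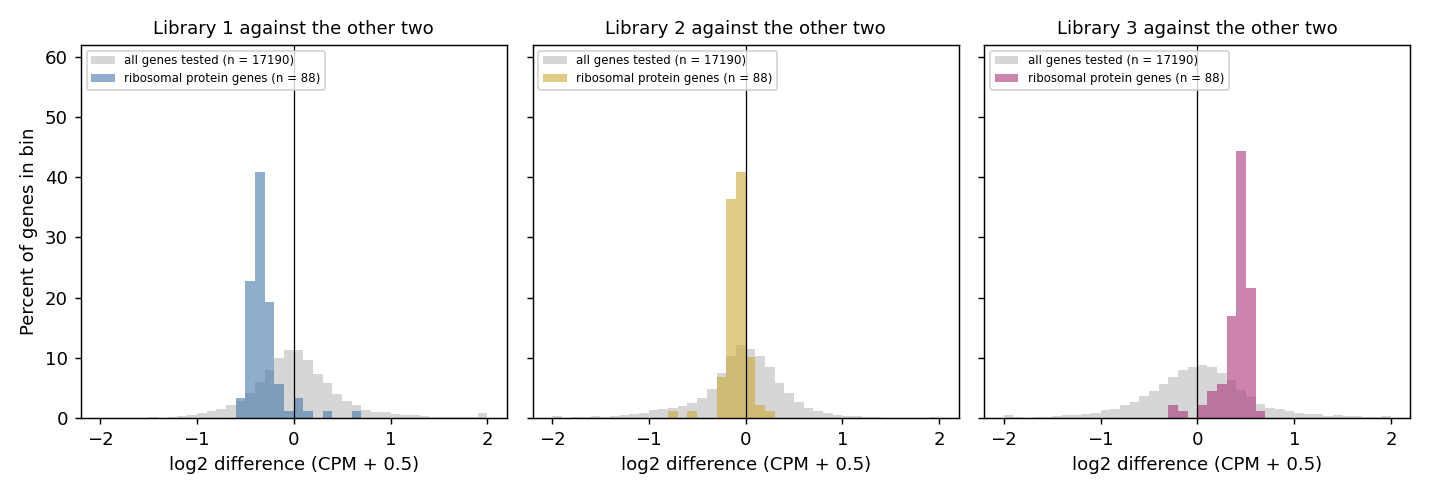
Distribution of the log2 difference (horizontal axis, CPM + 0.5, values beyond 2 placed in the end bins) between each library and the mean of the other two, as percent of genes per bin (vertical axis), for all 17190 genes tested (grey) and the 88 ribosomal protein genes tested (coloured). The members form a narrow peak at a median of -0.35 in library 1, -0.09 in library 2 and 0.45 in library 3.

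The deposited TPM intervals gave a measure that does not use the chi-square test. The interval of library 3 lay wholly above that of library 1 in 76 of the 88 members, beside 14.7% of all genes tested, and above those of both other libraries in 65 members, beside 8.15%. The interval of library 1 lay wholly above that of library 3 in 0 members, beside 29.6% of all genes.

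Rps20, a small subunit gene, had the largest ratio of highest to lowest library among well-read members, with 151, 165 and 256 CPM in libraries 1, 2 and 3, a ratio of 1.69 (chi-square, adjusted p = 5.92e-227). Rps28 had a ratio of 1.64, with 153, 196 and 251 CPM, and Rps19 a ratio of 1.63, with 717, 891 and 1170 CPM. Rpl28, Rps26, Rpl35 and Rps15a were at 1.59 to 1.60. In each of these genes library 1 was lowest and library 3 highest. The ratios of 2.12 for Rpl39l and 1.97 for Rpl36a-ps1 rest on 19 to 94 reads a library.

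Members outside the order were few. Rps19bp1, the member that is no ribosomal subunit, was not called (15.5, 16.5 and 16.4 CPM, adjusted p = 0.626 by the chi-square test). Rpl5 was highest in library 1 (19.1, 18.3 and 15.7 CPM), while its copy Gm15500 had library 3 highest in TPM. Rpl10 and Rpl7l1 were highest in library 2, and Rpl10 was lowest in library 3 (29.2, 31.8 and 25.04 CPM). Rps27l was lowest in library 2 (54.5, 46.2 and 56.6 CPM). Rpl27 (ratio 1.19), Rpl7l1 (1.18) and Rps12-ps3 (1.15) had the next smallest ratios after Rps19bp1 (1.06), and Rpl5 had 1.22. The other members outside the order, Rpl11, Rps2, Rpl7a, Rps12-ps3, Rpl39l and Rpl36a-ps1, had library 2 lowest.

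The same order was seen with reads summed over members and copies. Of the 83 families summed in this way, 82 were called, beside 80.0% of all single genes tested. Called and highest in library 3 were 81, beside 31.4% of single genes. The order 1 below 2 below 3 was seen in 76, beside 19.9% of single genes. The median log2 ratio of library 3 over library 1 was 0.54 over families. Among the 27 members with under 50% of their windows in other genes, 25 were called and highest in library 3, with a median of 0.53. These counts were chosen after the data were seen.

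Transcript length moved with the same difference, among members and elsewhere. Short mRNAs in general were higher in library 3: the median log2 ratio of library 3 over library 1 was 0.31 in 278 other protein-coding genes with a leading transcript under 600 bases, 0.22 from 600 to 1000 bases, 0.09 from 1000 to 2000, -0.07 from 2000 to 4000 and -0.20 above that. Members had higher medians in the classes under 2000 bases, 0.56 for 53 members under 600 bases, 0.53 for 25 members from 600 to 1000 bases and 0.44 for 8 from 1000 to 2000. The 2 members from 2000 to 4000 bases had a median of -0.064, beside -0.066 for the other genes of that class. Rank correlations across the 88 members between length and the library's difference were 0.40, -0.10 and -0.22 in libraries 1, 2 and 3, beside 0.13, 0.22 and -0.27 across 12974 other protein-coding genes; the genes share the libraries and are not independent replicates. With a quadratic trend in length and GC content over all genes removed, the members' median differences were -0.30, 0.01 and 0.30, so those of libraries 1 and 3 kept their sign and the small one of library 2 did not.

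**Figure D4:**
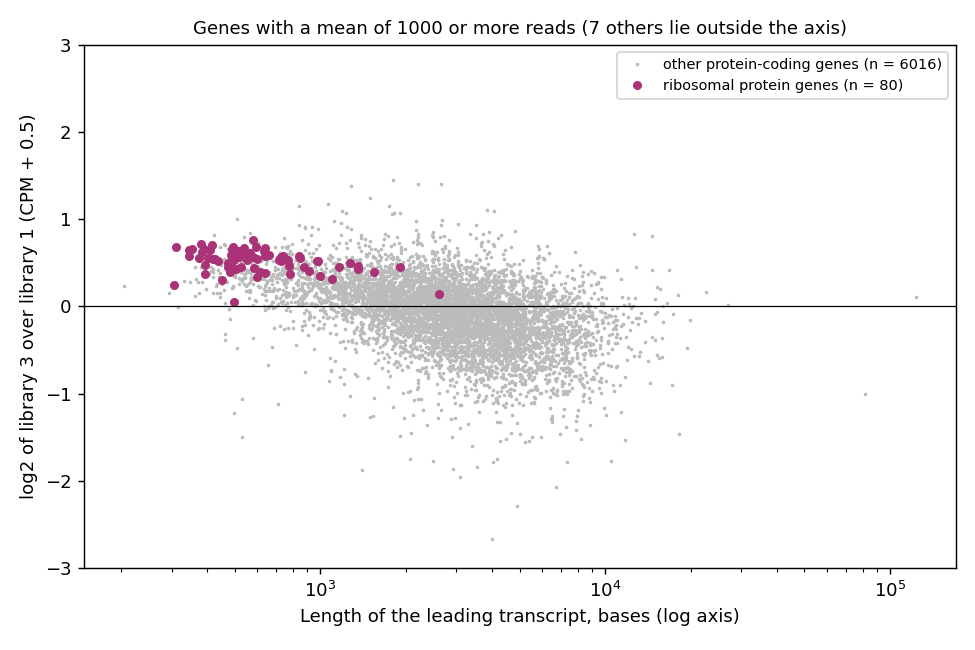
Log2 ratio of library 3 over library 1 (vertical axis, CPM + 0.5) against the length in bases of the leading transcript (horizontal axis, logarithmic) for 80 ribosomal protein genes (purple) and 6016 other protein-coding genes (grey) with a mean of at least 1000 reads. The members lie between 0.05 and 0.76, above most other genes of the same length.

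Erythroid RNA moved with the same libraries, being highest in library 1, where members were lowest. It took 0.499% of gene reads in library 1, 0.0405% in library 2 and 0.0308% in library 3. With plain library totals over genes outside the erythroid list the members' median differences were -0.35, -0.11 and 0.46. With plain totals over all genes they were -0.36, -0.11 and 0.46. The list held at most 0.499% of gene reads, so leaving it out could change the totals only a little. All 8 erythroid genes were called with library 1 highest, as were 9 of 10 proliferation genes, beside 25.3% of all genes tested. The part of cells other than regulatory T cells, and of proliferation, in the members' difference was not tested, and fewer cells of a type cannot be told apart from less RNA per cell.

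Subunit genes that the naming rule misses were also examined. Fau, which encodes a ubiquitin-like protein fused to a small subunit protein, was at 735, 856 and 1046 TPM. The member Rps27a, the ubiquitin fusion of the small subunit, was at 391, 450 and 531 TPM. Rack1, a scaffold on the small subunit, was at 628, 663 and 757 TPM. Fau and Rack1 were both called with library 3 highest and library 1 lowest in CPM.

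Other mRNAs with a TOP start formed a further list. Of 15 genes, 14 were called (80.0% of all genes tested), 9 with library 3 highest (31.4%) and 5 with library 1 highest (25.3%). The order that 77 of the 88 members had was seen in 4 (19.9% of all genes tested). In this list and those below, the highest library is by CPM, while levels are given in TPM. These differed for many genes of these lists. Examples are Eif3f, Deptor, Polr1d, Nop56 and Abce1, which were highest in library 3 by CPM but not by TPM. Eef1a1, the elongation factor that delivers aminoacyl-tRNAs, was at 4169, 4039 and 4613 TPM, Tpt1 at 1369, 1479 and 1529 TPM and Eef2 at 646, 586 and 527 TPM. At the lower end Nap1l1 was at 116, 92.4 and 80.6 TPM and Eif4b at 79.8, 76.6 and 69.8 TPM. The median log2 difference of library 3 in this list was 0.25, against 0.45 for the members. Length differs between these lists, and their difference was not tested.

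Of 14 regulators of ribosomal protein synthesis 13 were called, beside 80.0% of all genes tested. Library 3 was highest in 5 of those called (31.4% of all genes tested), library 1 in 5 (25.3%) and library 2 in 3. Of the 5 with library 3 highest by CPM, only Eif4ebp2 was also highest there by TPM. Eif4e, the cap-binding protein, was at 173, 183 and 172 TPM, Rheb, the activator of mTOR, at 108, 127 and 117 TPM, and Larp1, which binds TOP starts, at 104, 93.5 and 81.4 TPM. Rptor, a subunit of mTOR complex 1, was at 17.0, 15.1 and 10.99 TPM and Deptor at 0.83, 0.67 and 0.37 TPM.

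RNA polymerase I and its factors make the ribosomal RNA. Of 15 such genes 12 were called, beside 80.0% of all genes tested. Library 3 was highest in 7 of those called (31.4% of all genes tested), library 2 in 4 and library 1 in 1 (25.3%). Of these 7, only Cd3eap and Ttf1 were also highest in library 3 by TPM, and Ubtf was lowest there (94.2, 86.1 and 84.7 TPM). Polr1d was highest at 133, 147 and 135 TPM, followed by Ubtf at 88.4 ± 5.09 TPM and Twistnb at 75.7 ± 5.63 TPM, and Ttf1 (18.6 ± 0.83 TPM) and Cd3eap (14.5 ± 2.29 TPM) were lowest.

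Ribosome assembly factors, which process and fold the precursor particles, made up the longest list. Of 39 genes 34 were called, beside 80.0% of all genes tested. Library 3 was highest in 16 of those called (31.4% of all genes tested), library 2 in 13 and library 1 in 5 (25.3%). Of these 16, Nop56, Nop58, Gar1, Dkc1, Riok2, Wdr43, Nmd3 and Sbds were not highest in library 3 by TPM. The order 1 below 2 below 3 was seen in 9, beside 19.9% of all genes tested. Ncl, the nucleolar RNA-binding protein, was at 404, 398 and 429 TPM, Nop56 at 250, 265 and 258 TPM and Eif6, which keeps new large subunits from joining small ones, at 193, 198 and 200 TPM. Utp20 (11.9 ± 2.19 TPM) and Rrp12 (11.9 ± 4.68 TPM) were lowest.

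Of 8 factors that rescue stalled ribosomes, all 8 were called, beside 80.0% of all genes tested. Library 1 was highest in 5 (25.3% of all genes tested were called and highest there), library 3 in 2 (31.4%) and library 2 in 1. Rnf10, a ubiquitin ligase of the small subunit, was at 128, 131 and 74.3 TPM, Nemf at 98.9 ± 1.98 TPM and Hbs1l at 81.6 ± 18.0 TPM, and Zfp598 (16.1 ± 3.64 TPM) and Pelo (7.11 ± 1.51 TPM) were lowest. Of 6 genes of the p53 and Myc branch, 5 were tested and 4 called, beside 80.0% of all genes tested. Myc, an activator of ribosomal protein genes, was at 198, 217 and 175 TPM, Trp53 at 133, 190 and 197 TPM, Max at 142 ± 9.10 TPM, Cdkn1a at 7.72 ± 2.89 TPM and Mycn at 0, 0 and 0.04 TPM. Mdm2, whose product binds free Rpl5 and Rpl11 proteins, was not called (87.3, 82.9 and 77.0 TPM, adjusted p = 0.646 by the chi-square test).

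Most members had their reads on 1 transcript. Over the 88 members tested the leading transcript took a median of 87.8% of the gene's reads, and in 79 it took at least 50%. The leading transcript was annotated as protein coding in 67 members, as a retained intron in 10, as a processed transcript in 7 and as a target of nonsense-mediated decay in 4. Transcripts of the protein-coding type took at least 90% of the reads in 56 members and under 50% in 21.

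Rps26 and Rps16 were the clearest cases of reads on noncoding models. In Rps26 the retained-intron transcript Rps26-202, of 3 exons, took 96.1%, 96.6% and 97.7% of the reads, and in Rps16 Rps16-203 took 92.2 ± 0.56% (SD, n = 3). Rpl35-203, a processed transcript of 541 bases, took 96.6 ± 0.68% of the reads of Rpl35, and Rpsa-206, a decay target of 1101 bases, took 91.6 ± 0.65% of those of Rpsa, the laminin-receptor protein of the small subunit. These shares varied by less than 3 percentage points between libraries.

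Other members with a noncoding leading transcript, all given as percent of the gene's reads, were as follows. Retained introns led in Rps23 (90.4 ± 0.37%), Rps13 (87.1 ± 0.72%), Rpl15 (80.6 ± 0.15%), Rps20 (66.2 ± 1.54%), Rpl21 (55.0 ± 2.10%), Rps7 (47.4 ± 1.78%) and Rpl12 (35.8 ± 3.38%). Processed transcripts led in Rpl24 (87.25 ± 0.39%), Rps18 (82.1 ± 1.96%), Rpl23 (72.5 ± 3.63%), Rpl22l1 (71.4 ± 3.09%), Rpl37 (68.7 ± 1.63%) and Rpl11 (30.5 ± 4.63%). Decay targets led in Rpl14 (90.2 ± 0.41%) and Rps12 (31.7 ± 4.08%). A coding transcript led with under 50% of the reads in Rps19 (48.1 ± 0.32%), Rpl5 (35.7 ± 6.01%) and Rpl10 (32.5 ± 2.27%). The leader is by the mean, and in Rpl5 and Rpl11 it was not the same in every library. In library 3 the retained-intron Rpl5-205 took 43.2%, beside 30.4% for the coding Rpl5-201. There the coding Rpl11-201 took 34.3%, beside 26.4% for the processed transcript Rpl11-207. Coding and noncoding models of 1 gene share exons, and the deposited values divide the shared reads by estimate.

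**Figure D5:**
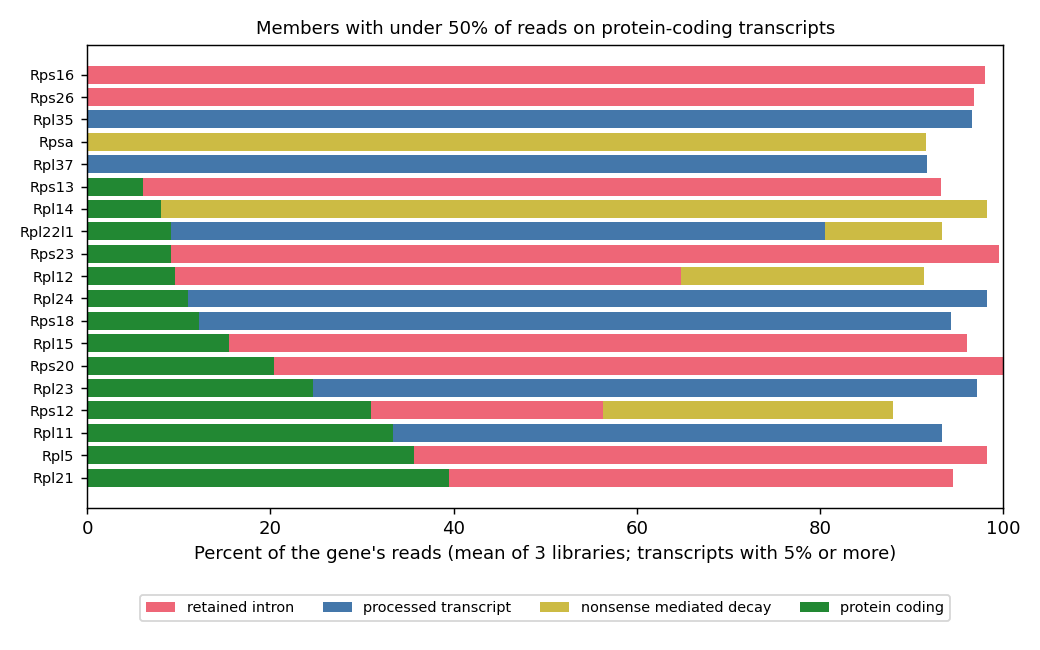
Percent of each gene's reads (horizontal axis, mean of 3 libraries, transcripts with at least 5%) by annotated transcript type in 19 of the 21 members with under 50% of reads on protein-coding transcripts. Retained-intron models fill most of the bar in Rps16, Rps26, Rps23 and Rps13, and the protein-coding part is under 10% of the bar in each of these 4.

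The pyrimidine run described above was looked for at annotated starts. Starts were taken from RefSeq (GRCm38.p6), where 66 of the 92 members matched. A run was counted where the first transcribed base was C and at least the next 4 bases were C or T, on the gene's strand. It was present at a start of 14 of 66 members (21.2%) and of 813 of 27025 genes (3.01%). The 5 longest runs among members are shown, in windows of 15 bases before and 15 from the start, with capitals for the run: Rpl15 (chr14:18270972-18271001), Rpl35 (chr2:39005117-39005146), Rps10 (chr17:27635230-27635259), Rps18 (chr17:33955651-33955680) and Rps6 (chr4:86857353-86857382), all on the minus strand.
Rpl15: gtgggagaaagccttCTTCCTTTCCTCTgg
Rpl35: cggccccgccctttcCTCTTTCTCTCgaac
Rps10: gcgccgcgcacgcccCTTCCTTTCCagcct
Rps18: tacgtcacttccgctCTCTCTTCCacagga
Rps6: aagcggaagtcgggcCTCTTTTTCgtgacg
All 5 genes were called with library 3 highest, as were most members without such a run. An annotated start can lie some bases from the start in use, so the absence of a run says only that these letters were not at the annotated base.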

How the data were processed

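The authors deposited, for each of the 3 libraries, a headed gene table and a transcript table with expected counts (estimated counts per feature), posterior mean counts, TPM, FPKM and bounds of a TPM interval, an isoform percentage per transcript (not used), and a smaller headerless table of counts per gene. Per the labels the assembly is mm10 (GRCm38). The aligner, the counting program and its settings are not stated in the labels. Deposited effective lengths were 38.7 to 49.0 bases below the lengths over 53082 genes, so levels of short mRNAs such as these depend on that correction.

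Members and gene lists were chosen with earlier results of these data known. Named genes are the 10 highest and 10 lowest members, paralog pairs, stalk and ubiquitin-fusion genes, extremes of the library ratio, members not called, members with a leading transcript that is noncoding or under 50%, the 5 widest intervals, and the 3 highest and 2 lowest of each list. Expected counts were rounded and scaled by TMM effective library sizes (edgeR 4.0.16, factors 0.998, 0.994 and 1.008). A chi-square test with 2 degrees of freedom (scipy 1.17.1) was adjusted by Benjamini-Hochberg over all 17190 genes. No fit between groups was possible with 1 group. The procedure was tested on simulated Poisson counts, which hold no spread between libraries beyond counting error and the changes put in. The real counts held more (edgeR common biological coefficient of variation 0.375). The simulation therefore cannot show how the test behaves under such spread. Technical libraries of 1 biological replicate give p-values for the spread between these libraries only. DESeq2 1.42.0 size factors, FPKM, posterior means and the smaller count table were alternatives. Coding sequences were aligned with Biopython 1.88, using GENCODE M21. Values of a few genes are not reported here; counts and medians over members include those genes.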

Additional observations from a re-analysis of the deposited data

How the results depend on the processing

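The members' median level of 711 TPM was 461 as FPKM and 440.0 TPM with protein-coding transcripts only, where the spread among ordinary subunit genes (90th over 10th percentile) was 77.2 in place of 6.86. It was 5.54 over families when copies had to share 50% of windows, in place of 3.996. The leading transcript's median share was 89.5% by transcript TPM.

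The smaller count table differed most, for a cause that was not tested: members held 0.225%, 0.237% and 0.249% of its reads in libraries 1, 2 and 3 (3.46%, 3.85% and 5.04% with copies in the main table), 10 of 82 members were called, beside 65.2% of its genes, 9 with library 3 highest, and the median differences were -0.073, 0.015 and 0.046. Its ratios were of the opposite sign for Rpl7 to Rpl7l1 (-0.91), Rps4x to Rps4l (-1.24), Rps27 to Rps27l (-2.54), Rps27 to Rps27rt (5.48) and Rplp1 to Rplp2 (0.54). That of Rpl39 to Rpl39l was 0.42 there, in place of 6.79, and no longer larger than its spread. The ratio of Rplp1 to Rplp2 was also of the opposite sign without replicate 1 (0.014) and without replicate 2 (0.0096), and past its spread without replicate 3 (-0.044).

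Library 3's median difference was 0.31 by log2(TPM + 1), where all genes moved to -0.09, and 0.30 after removal of the trend in length and GC content, which gave 0.0071 for library 2. With 1 library left out the difference ran from -0.52 to -0.16 for library 1, from -0.35 to 0.16 for library 2 and from 0.35 to 0.52 for library 3, as the comparison is then with 1 library, and 85, 84 and 76 members were called without replicate 1, 2 and 3, beside 65.1%, 66.2% and 54.1% of all genes. Of the 27 members tested with under 50% of shared windows, 25 were called with library 3 highest, beside 31.4% of all genes tested. With DESeq2 size factors, total reads and posterior means 87 of 88 members were called, beside 79.9%, 80.1% and 79.3% of all genes. With no filter beyond 1 read 87 of 90 were called, beside 48.1%, and with a mean of 50 or more reads 86 of 87, beside 87.1%. No paired analysis was possible because there is 1 group.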

Other observations

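Rpl27-ps3 and Gm11518, annotated on different chromosomes as processed pseudogenes and both counted as copies of Rpl27, were listed at the same level in each library, 619, 679 and 778 TPM, each of them above Rpl27 itself (359, 400 and 372 TPM).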
